A study of Homo sapiens with 3 samples.

Results

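The genes described here encode the nuclear subunits of the respiratory chain and ATP synthase. They were chosen by symbol alone, with fixed patterns for complex I (NDUFA, NDUFB, NDUFC, NDUFS and NDUFV subunits), complex II (SDHA to SDHD), complex III (UQCR genes and CYC1), cytochrome c (CYCS), complex IV (COX4 to COX8) and complex V (ATP5 genes). The patterns matched 84 of the 17448 genes in the table, with 37 in complex I, 4 in complex II, 10 in complex III, 1 in cytochrome c, 13 in complex IV and 19 in complex V. All 84 are nuclear genes, and the table lists 0 mitochondrially encoded genes, so the subunits encoded by mitochondrial DNA were not analysed here.

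RNA came from H128, an established human small cell lung cancer (SCLC) cell line grown in culture. There were 3 libraries, each collected 48 h after transfection and all transfected. One received a control siRNA (siCont), and the others received an siRNA against ESRRG, the gene of estrogen-related receptor gamma (ERRγ), and are labelled siERRG2 and siERRG3. With 1 library per condition, no difference below has a replicate check and no test of the conditions was possible. In bulk RNA a change in the level of a transcript per cell and a change in the make-up of the culture cannot be told apart.

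Complexes I and II pass electrons from NADH and succinate to ubiquinone, complex III passes them on to cytochrome c, and complex IV passes them to oxygen. Complexes I, III and IV pump protons across the inner mitochondrial membrane, and complex V uses the gradient to make ATP. The estrogen-related receptors are orphan nuclear receptors that bind the extended half-site TCAAGGTCA, and are known, with their PGC-1 coactivators, for regulating genes of oxidative metabolism. The nuclear respiratory factor NRF1 and factors of the ETS family are other known regulators of these promoters.

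Promoter windows running from 250 bases before to 50 bases after a RefSeq gene start (GRCh38.p14) were found for 67 of the 84 genes, in 79 windows. They were searched on both strands for the letters TCAAGGTCA, for its core AAGGTCA, which lies within it, for the NRF1 letters (GCGCA, any base, then GCGC) and for the ETS letters CCGGAAG. TCAAGGTCA stood in 1 member window, that of SDHD, and in 0.353% of all 35116 windows. AAGGTCA stood in 15.2% of the member windows, against 3.92% of all windows and 2.75% of the windows of genes that passed the count filter. The NRF1 letters stood in 20.3% of the member windows, 5.78% of all windows and 9.23% of those of filtered genes, and CCGGAAG in 27.8%, 10.3% and 15.9%. The 11 genes with AAGGTCA were ATP5F1A, ATP5MG, ATP5MPL, COX7A2, COX8A, NDUFA5, NDUFB4, NDUFS6, NDUFS7, SDHB and SDHD. Of these, 5 changed by 1.2-fold or more in siERRG3, and 2 of the 5 also in siERRG2. Of all genes that passed the filter, 48.3% did so in siERRG3 and 35.5% in siERRG2. The promoter windows of SDHD, ATP5F1A and COX8A also hold the ETS letters, and those of SDHD and ATP5MPL the NRF1 letters. The AAGGTCA sites of the 5 follow, picked because their genes changed, and the sites of the other genes are not printed. With them is the NRF1 site of NDUFA9, picked because that gene had the largest fall of all subunit genes. Each is written 5′ to 3′ on the strand of the gene with the matched letters, or their reverse complement, in capitals. For SDHD the capitals mark the longer TCAAGGTCA match, which holds AAGGTCA within it. The windows lie at chr11:112086874-112086903 (SDHD, plus strand), chr18:46098299-46098328 (ATP5F1A, minus), chr11:63974621-63974650 (COX8A, plus), chr7:123601766-123601795 (NDUFA5, minus), chr14:103921512-103921541 (ATP5MPL, minus) and chr12:4649024-4649053 (NDUFA9, plus).
SDHD: ggttggtggaTGACCTTGAgccctcaggaa
ATP5F1A: gccggctgtctTGACCTTctttgcggctcg
COX8A: ttttggcttccTGACCTTgggctacggctg
NDUFA5: aaattaagaccTGACCTTgtacaactgaaa
ATP5MPL: tgcgcgctcggTGACCTTtccgagttggct
NDUFA9: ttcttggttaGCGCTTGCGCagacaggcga

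A match in these letters is a description and was not tested for binding. In SDHD and COX8A the match begins after the gene start, by 11 and 12 bases. It begins 21 bases before the start in ATP5F1A and 1 base before it in ATP5MPL. In NDUFA5 it lies 133 or 173 bases before, depending on which of its starts is used.

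The authors deposited estimated counts per gene, rounded here to whole numbers, and an expression value that behaved as FPKM, a read count corrected for the length of the transcript and for library depth. The counts summed to between 19861982 and 20016828 per library. ESRRG had 806 counts in siCont, against 211 in siERRG2 and 230 in siERRG3, so both ESRRG libraries were low, with log2 fold changes of -1.94 and -1.82. ESRRA, the gene of the related receptor ERRα, had 1184, 1270 and 1169 counts. Of the neuroendocrine markers, NEUROD1, which marks one subtype of SCLC, had 7395, 7020 and 4073 counts and CHGA, chromogranin A, had 3282, 3750 and 2751. INSM1, a neuroendocrine transcription factor, had 10359, 5279 and 9168 counts and was low in siERRG2, and SYP, synaptophysin, had 5279, 5169 and 3779 and was low in siERRG3, while POU2F3, which marks the tuft-like subtype, had 6, 8 and 11. The summed FPKM of the 5 neuroendocrine and subtype markers was 496.6 in siCont, against 413.5 in siERRG2 and 375.7 in siERRG3. The 3 epithelial markers summed to between 5.07 and 8.15, and the 5 markers of other cells to between 22.98 and 30.17, with none of either list at or below 3 counts in every library. Whether any of these differences bears on the subunit genes was not tested.

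Nearly all subunit genes were expressed at high levels (plot of FPKM by gene). In siCont the 84 genes summed to 16951.4 FPKM, 3.455% of all FPKM, and held 1.516% of siCont counts, 1.465% of siERRG2 counts and 1.534% of siERRG3 counts. By complex, the summed FPKM in siCont was 5263.4 for complex I, 422.0 for complex II, 1623.8 for complex III, 4050.3 for complex IV and 5498.2 for complex V. The median gene of complex IV, at 360.4 FPKM, stood above that of complex V at 250.8, of complex III at 128.8, of complex I at 123.1 and of complex II at 89.0. Levels between genes rest on the transcript length the authors used. UQCRB, with 25.79 FPKM at 2498 counts in siCont, was listed with an implied length of 4877 bases, and its place in the order depends on that length.

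The highest levels belonged to different parts of the machinery. ATP5F1B, the catalytic beta subunit of the F1 head, had 751.80, 708.89 and 709.25 FPKM in siCont, siERRG2 and siERRG3. COX7B, a small subunit of complex IV, had 707.80, 651.12 and 739.63, and UQCRH, the hinge protein of complex III, had 679.45, 699.34 and 711.90. NDUFS5, an accessory subunit, was the highest of complex I with 411.92, 442.13 and 420.30. The lowest complex I gene was NDUFS4, an accessory subunit of the NADH-oxidising arm, with 36.91, 29.29 and 32.93.

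Isoform pairs were uneven. COX4I1, the common isoform of subunit 4, had 450.82, 439.35 and 484.93 FPKM in the 3 libraries, while COX4I2, its hypoxia-responsive counterpart, had 1 count in each. COX6B1 had 4034, 3685 and 4328 counts, while COX6B2, known from testis, had 15, 7 and 17. COX7A2 had 2345, 2018 and 2647 counts, while COX7A1, known from heart and skeletal muscle, had 0, 2 and 0. A count of 0 allows a level of up to 3 counts. ATP5MC1, ATP5MC2 and ATP5MC3 encode the same mature c-ring protein, and all were expressed, with 3253, 4700 and 4536 counts in siCont. Per length they stood at 293.86, 383.00 and 85.23 FPKM, so the order of ATP5MC3 rests on its longer implied transcript. COX4I2, COX7A1 and ATP5MGL, which had 1, 8 and 4 counts, did not reach 10 counts in any library. The remaining 81 genes passed that filter, as did 14031 genes in all. With 3238 counts, the median of the mean count of these 81 was high, and 5 of them had a mean under 1000.

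Changes from siCont were taken as differences of log2 CPM after TMM scaling, and a call, lower or higher, needed 1.2-fold, a log2 change of 0.263. In siERRG2, 8 of the 81 genes were lower and 1 was higher, while 19.2% of all 14031 genes were lower and 16.3% higher. The members called either way made up 11.1%, against 35.5% of all genes. In siERRG3, 5 were lower and 5 higher, against 25.1% and 23.2% of all genes, and 12.3% were called either way against 48.3%. Calls are more common among low counts. Among the 4684 genes that averaged at least 1000 counts, a class chosen after the values were seen, 18.7% were called in siERRG2 and 35.6% in siERRG3, and of the 76 members in that class 7.895% and 11.84%. By direction, 5 of the 76 were lower in siERRG2 (10.7% of the class) and 1 higher (8.01%), and in siERRG3 4 were lower (20.8%) and 5 higher (14.8%). The share of subunit genes called was therefore below that of all genes in both libraries, also at like counts.

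**Figure D1:**
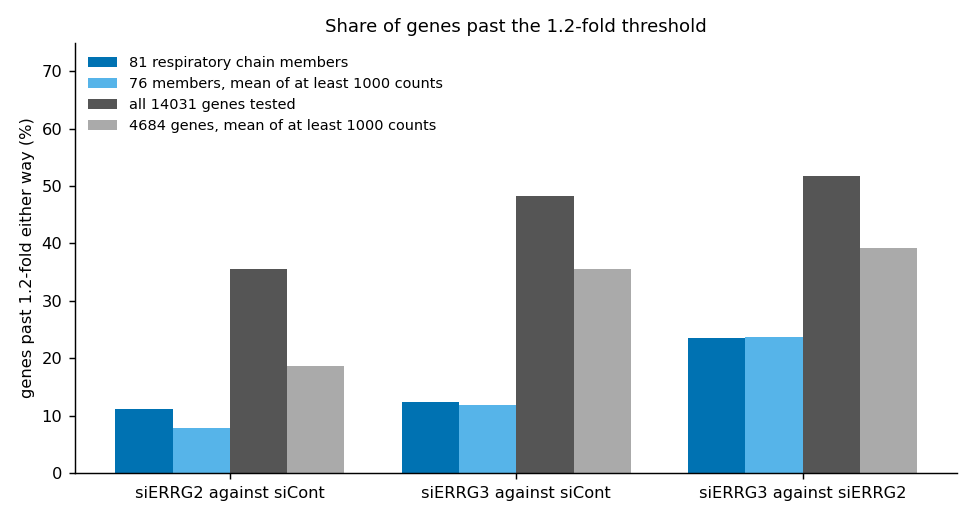
Share of genes (%) past 1.2-fold in either direction in each comparison, for the 81 subunit genes, the 76 of them that averaged at least 1000 counts, all 14031 genes tested and the 4684 that averaged at least 1000 counts. The subunit bars (11.1%, 12.3% and 23.5%) stand below the bars of all genes (35.5%, 48.3% and 51.7%) in each comparison, and also below the bars of the higher-count genes (18.7%, 35.6% and 39.2%).

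The medians lay near 0. Over the 81 genes the median log2 fold change came to -0.03 in siERRG2 and to 0.06 in siERRG3, and over all genes it was 0.00 in both. The median of the absolute log2 change was 0.12 and 0.15 for the subunit genes and 0.18 and 0.25 for all genes. Summed FPKM of the subunits was 0.979 of siCont in siERRG2 and 1.036 in siERRG3. Within these narrow margins the complexes were not alike. In siERRG2 the median was 0.03 for complex I, -0.22 for complex II, -0.02 for complex III, -0.16 for complex IV and -0.08 for complex V. In siERRG3 it was 0.10, -0.02, 0.03, 0.08 and 0.10. No complex had a median past 1.2-fold in either library, and only the lone cytochrome c gene reached it, in siERRG3.

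**Figure D2:**
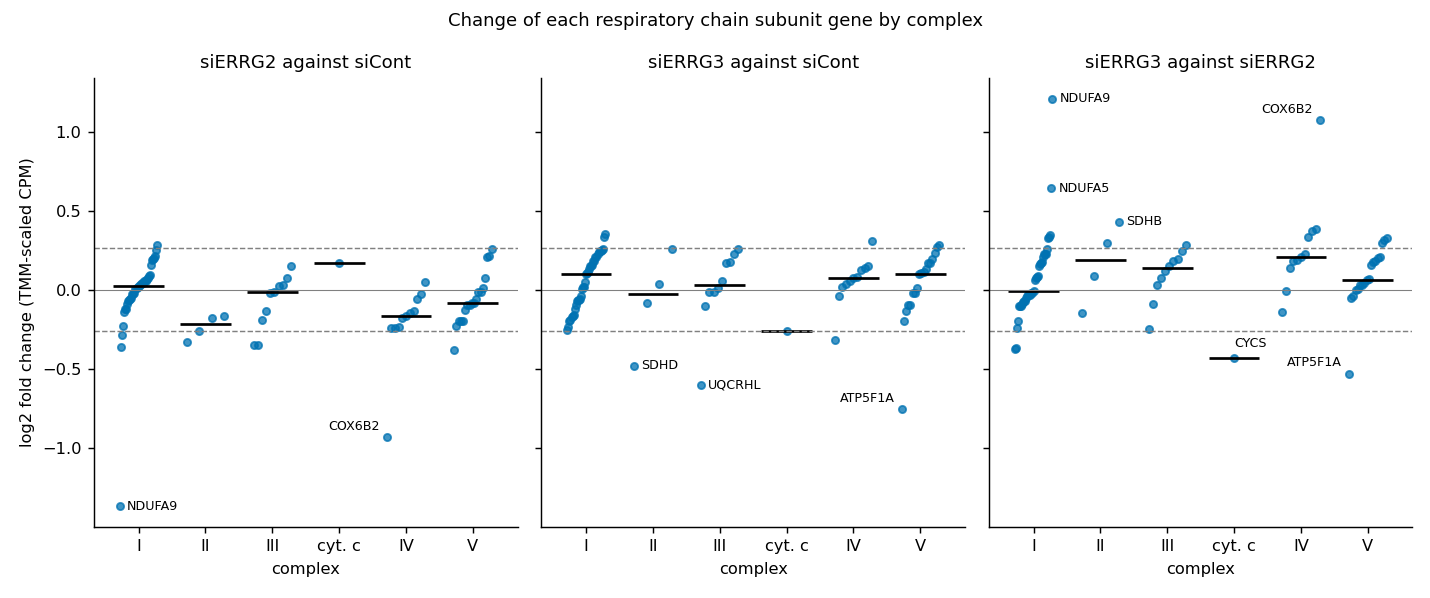
Log2 fold change of each of the 81 subunit genes (points) by complex in the 3 comparisons, with the median of each complex as a bar and dashed lines at 1.2-fold. Complex IV lies mostly below 0 in siERRG2 and mostly above it in siERRG3, while the genes far from the rest differ between the libraries (NDUFA9 at -1.37 in siERRG2, ATP5F1A at -0.76 in siERRG3).

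Small shifts were larger than counting error for many genes. For the scaled count ratio to siCont, an exact binomial (Clopper-Pearson) interval at 95%, which covers counting error only and compares libraries rather than conditions, lay below 1 for 32 of the 81 genes in siERRG2, above 1 for 16 and held 1 for 33. In siERRG3 it lay below 1 for 19, above 1 for 38 and held 1 for 24. Of all 14031 genes, 22.4% lay below 1 and 21.7% above in siERRG2, and 28.5% and 27.1% in siERRG3. Among the 4684 genes of at least 1000 counts, 31.6% lay below 1 and 33.2% above in siERRG2, and 39.3% and 37.4% in siERRG3. Of the 76 members in that class, 31 lay below and 16 above in siERRG2, and 18 and 38 in siERRG3. The balance of small shifts in the subunit genes thus pointed down in siERRG2 and up in siERRG3. In siERRG2 it did not hold for complex I, with 8 of 37 below 1 and 9 above, and complexes III and V had 3 below and 2 above of 10 and 9 below and 4 above of 18. In siERRG3 it did not hold for complex II, with 2 of 4 below 1 and 1 above. The cytochrome c gene lay above 1 in siERRG2 and below 1 in siERRG3, against both balances.

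Of all genes tested, 19.2% were lower and 16.3% higher in siERRG2, and 25.1% and 23.2% in siERRG3. Complex I had 3 lower genes (8.11%) and 1 higher gene (2.70%) of 37 in siERRG2, and 0 lower and 2 higher (5.41%) in siERRG3. The 7 genes of its catalytic core, which hold the flavin and iron-sulfur clusters and the quinone-binding region, held 0 called genes in either library, with medians of -0.07 and -0.06. NDUFV1, the subunit that binds NADH and flavin, had 3902, 3625 and 3455 counts. The 30 accessory genes had medians of 0.04 and 0.11. All called genes of complex I were accessory.

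NDUFA9, an accessory subunit at the junction of the matrix and membrane arms (gene 4704, chr12:4649098-4703981 in the GRCh38 coordinates of the table), had 2416 counts in siCont, against 944 in siERRG2 and 2194 in siERRG3. The siERRG2 library was far below the other two. There its log2 fold change was -1.37 and the interval of its count ratio ran from 0.358 to 0.417, and 130 of the 14031 genes had a change as low or lower. In siERRG3 its log2 fold change was -0.16, short of 1.2-fold but beyond counting error, with an interval from 0.842 to 0.947. The gap between the ESRRG libraries themselves was 1.21 on the log2 scale. All its counts were whole numbers, and its call in siERRG2 was the largest in size of any subunit gene.

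NDUFA5, another accessory subunit of the matrix arm, had 3753 counts in siCont, against 3107 in siERRG2 and 4874 in siERRG3. It was the 1 subunit gene called in opposite directions, with log2 fold changes of -0.29 and 0.35 and intervals of 0.780 to 0.859 and 1.22 to 1.33. Its counts were not all whole, and how the counting divided reads is not given. NDUFS4 had 474, 373 and 422 counts, and fell by 0.36 (log2) in siERRG2, while its siERRG3 value was -0.19. NDUFB1, a small membrane subunit, was the only higher gene in siERRG2, with 955, 1177 and 1102 counts and log2 fold changes of 0.28 and 0.18. NDUFA10, an accessory subunit of the membrane arm, had 1849 and 1883 counts in siCont and siERRG2 and 2373 in siERRG3, where it rose by 0.34. NDUFA4 carries a complex I symbol, but its protein is now placed in complex IV, and it had 4562, 5355 and 4160 counts. Moving it there left the siERRG2 median of complex IV at -0.16.

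Complex II had 4 genes, all with a count ratio interval below 1 in siERRG2. SDHD, a membrane anchor that helps form the heme and ubiquinone sites (gene 6392, chr11:112086824-112095801), had 2130 counts in siCont, against 1714 in siERRG2 and 1553 in siERRG3. Both ESRRG libraries lay below siCont. The log2 fold changes were -0.33 and -0.48, with intervals of 0.746 to 0.848 and 0.671 to 0.766. SDHD and UQCRHL were the only 2 of the 81 genes lower in both libraries, and 0 were higher in both, while 7.89% of all genes were lower in both and 7.27% higher in both. In the class of at least 1000 counts, SDHD was the 1 member lower in both and 0 were higher, against 4.04% and 2.5% of the class. Both comparisons use the same siCont library. SDHD is also the gene whose promoter window holds TCAAGGTCA, and the same window holds the NRF1 and the ETS letters. Over all tested genes with TCAAGGTCA in a window, which rest on 32 windows, the median log2 fold change came to -0.13 in siERRG2 and to 0.13 in siERRG3.

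The region of SDHD in the table is overlapped by that of TIMM8B, an import chaperone of the mitochondrial intermembrane space, which had 1473, 1829 and 1925 counts and rose by 0.30 and 0.36. Whether the counting used strand is not given, so reads from any overlap cannot be assigned to either gene. The extents in the table are wide, with TIMM8B listed from 112074305 to 112128483, so how far the transcripts overlap was not tested. NKAPD1, whose listed region also overlaps SDHD, had 1167, 1234 and 1378 counts. The other complex II genes were not called against siCont. SDHA, the flavoprotein that oxidises succinate, had 5814, 5232 and 5574 counts, at log2 fold changes of -0.17 and -0.09. SDHB, the iron-sulfur subunit, had 4098, 3670 and 4976 counts, with values of -0.18 and 0.26, the latter just short of 1.2-fold. SDHC, the other membrane anchor, had 3550, 3003 and 3702 counts, with values of -0.26 and 0.04. The summed FPKM of complex II was 0.870 of siCont in siERRG2 and 1.029 in siERRG3.

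Complex III had 2 lower genes of 10 in siERRG2 and 1 in siERRG3, and no gene was higher in either. UQCRC2, a core protein (gene 7385), had 5778 counts in siCont, against 4587 in siERRG2 and 5474 in siERRG3, so that siERRG2 was lowest. It fell by 0.35 on the log2 scale there, with an interval of 0.755 to 0.816. In siERRG3 its log2 fold change was -0.10, short of 1.2-fold, with an interval of 0.898 to 0.967. UQCRC1, its partner, had 4789, 4417 and 4829 counts and was not called. The redox subunits CYC1, cytochrome c1, and UQCRFS1, the Rieske iron-sulfur protein, had log2 fold changes of -0.19 and 0.07 in siERRG2 and of 0.01 and -0.02 in siERRG3.

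UQCRHL had 104, 82 and 69 counts, at log2 fold changes of -0.35 and -0.60. It is a near copy of UQCRH, which had 8184, 8429 and 8654, its counts were not whole, and its siERRG2 interval of 0.576 to 1.05 held 1, so its call is uncertain. Without such genes and with an interval clear of 1 asked for, SDHD was the 1 subunit gene lower in both libraries.

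CYCS, the mobile electron carrier between complexes III and IV, had 10416 counts in siCont, against 11818 in siERRG2 and 8826 in siERRG3. The ESRRG libraries lay on either side of siCont. Its count ratio was 1.12 in siERRG2, with an interval of 1.09 to 1.15, and 0.833 in siERRG3, with an interval of 0.810 to 0.857. The siERRG3 value sat on the threshold, and the call was lost with total counts, DESeq2 size factors, FPKM or a filter at a mean of 50 counts, where the log2 fold change was between -0.26 and -0.25.

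Complex IV had 10 of its 11 tested genes below 0 in siERRG2 and 9 of 11 above 0 in siERRG3. Of all 14031 genes, 7020 were below 0 in siERRG2 and 6965 above 0 in siERRG3. In the shortest of 5 classes of implied length, 1270 of 2807 genes were below 0 in siERRG2 and 1768 above 0 in siERRG3. In siERRG2 the count ratio had an interval below 1 for 8 and above 1 for 0 of the 11, and in siERRG3 for 1 and 6. NDUFA4, left out of these 11 by its symbol, ran against both patterns, at log2 fold changes of 0.215 and -0.157. Both of its shifts were beyond counting error. Counting NDUFA4 in complex IV, 10 of 12 genes were below 0 in siERRG2 and 9 of 12 above 0 in siERRG3. Few of the complex IV shifts reached 1.2-fold. COX8A, the only subunit 8 isoform in the list, had 4552, 4073 and 3721 counts, and fell by 0.31 in siERRG3, while its siERRG2 value was -0.18. COX5A, a subunit on the matrix side, had 4537, 4507 and 5706 counts, and rose by 0.31 in siERRG3, the only library in which it stood apart. COX6B2 was called lower in siERRG2 on 7 counts against 15, and its interval, from 0.159 upwards, held 1. COX4I1, COX6A1, COX6B1, COX7B and COX7C, at more than 4000 counts in siCont, had log2 fold changes between -0.16 and 0.05 in siERRG2 and between 0.02 and 0.08 in siERRG3.

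Complex V had 1 lower gene in siERRG2, 1 lower and 2 higher genes in siERRG3, and 18 genes tested. These calls were 5.56%, 5.56% and 11.1% of the 18, against 19.2%, 25.1% and 23.2% of all genes. ATP5F1A, the alpha subunit of the F1 head (gene 498, chr18:46083471-46104233), had 13736 counts in siCont, against 11872 in siERRG2 and 8268 in siERRG3. All 3 libraries stood apart beyond counting error, siERRG3 most. Its log2 fold change stood at -0.23 in siERRG2, short of 1.2-fold, and at -0.76 in siERRG3, with an interval of 0.576 to 0.608, and 827 of the 14031 genes were as low or lower there. ATP5F1B, its catalytic partner in the head, had 27467, 25955 and 26135 counts and log2 fold changes of -0.10 and -0.10. ATP5F1C, the central gamma subunit, had 6221, 6221 and 6237 counts, at log2 fold changes of -0.02 in both.

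In the peripheral stalk, ATP5PD had 2172, 1685 and 1922 counts, and fell by 0.38 in siERRG2, while its siERRG3 value was -0.20. All 4 stalk genes were below 0 in siERRG2, at a median of -0.14, and ATP5PB, ATP5PF and ATP5PO were not called. The 3 c-ring genes had medians of -0.13 and 0.01 and no call. ATP5MPL, a small membrane subunit, had 2116, 2554 and 2621 counts, with count ratios of 1.19 and 1.22, and was called higher in siERRG3. In siERRG2 it was also past 1.2-fold under 3 other scalings. ATP5IF1, the inhibitor that blocks ATP hydrolysis by the enzyme, had 4152, 4860 and 5103 counts, at log2 fold changes of 0.21 and 0.27. In FPKM, where the implied transcript length was -7.54% from siCont in siERRG2 and 12.2% in siERRG3, the values were 0.34 and 0.12, so its call moved from siERRG3 to siERRG2.

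**Figure D3:**
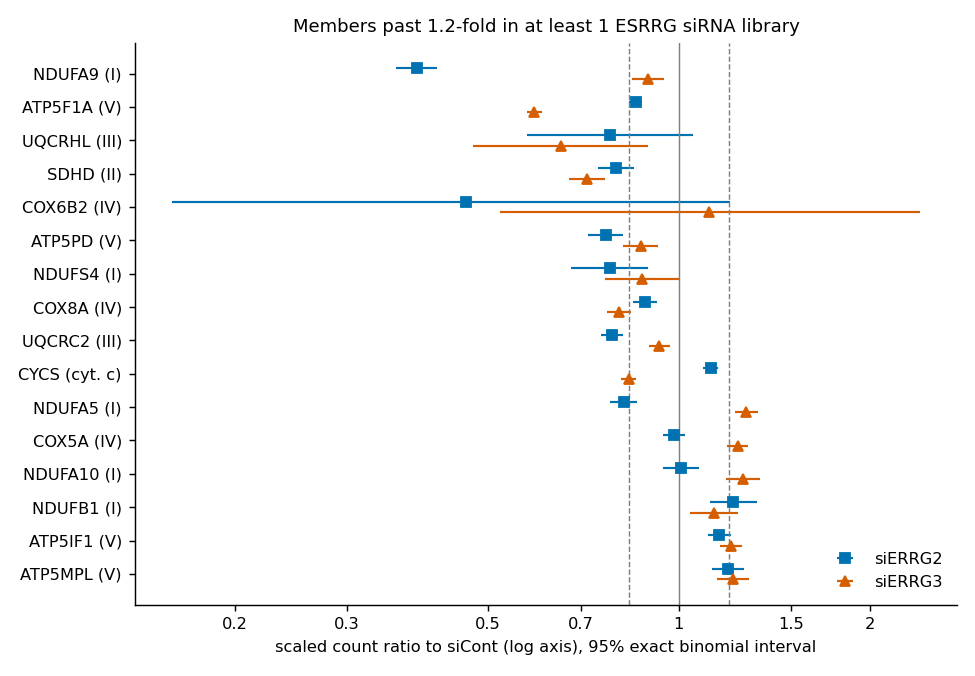
Scaled count ratio to siCont (log axis) of the 16 subunit genes past 1.2-fold in at least 1 ESRRG siRNA library, for siERRG2 (squares) and siERRG3 (triangles), with bars for the 95% exact binomial interval (counting error only) and dashed lines at 1.2-fold. SDHD and UQCRHL lie left of the lower line in both libraries, NDUFA5 lies beyond opposite lines, and the wide bars of COX6B2 and UQCRHL come from 17 and 104 counts or fewer.

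The ESRRG libraries were also set against each other, without siCont. In siERRG3 4 of the 81 genes were lower than in siERRG2 and 15 were higher, against 25.3% and 26.4% of all genes, and 23.5% were called either way against 51.7%. The higher genes were NDUFA9, COX6B2, NDUFA5, SDHB, COX7A2, COX5B, NDUFB9, COX5A, NDUFB5, NDUFA10, ATP5MF, ATP5PF, ATP5MC3, SDHC and UQCR11. SDHB, at 3670 and 4976 counts, was 0.43 higher on the log2 scale, with an interval of its ratio of 1.29 to 1.41. The lower genes were ATP5F1A, CYCS, NDUFA4 and NDUFA3, at -0.53, -0.43, -0.37 and -0.37. Of the 76 with at least 1000 counts, 4 were lower (21.7% of the class) and 14 higher (17.5%). The interval lay above 1 for 42 of the 81 genes and below 1 for 12, against 29.1% and 28.4% of all genes, and above 1 for 41 and below 1 for 12 of the 76, against 38.9% and 39.1%. The medians by complex were -0.01 for I, 0.19 for II, 0.14 for III, 0.21 for IV and 0.06 for V, over a median of 0.01 for all genes. The number of subunit genes that differed between the ESRRG siRNAs was thus above the number that differed between either of them and siCont (19 against 9 and 10), and the order was the same over all genes (7253 against 4985 and 6776).

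Transcript length moved with the siERRG3 values. Over all genes tested, grouped into 5 classes by implied length, the median log2 fold change in siERRG3 went from 0.12 in the shortest class to 0.05, 0.00, -0.06 and -0.12 in the longest, and in siERRG2 from 0.03 to -0.02. Of the 81 subunit genes, 66 were in the shortest class and 8 in the next. Their siERRG3 median of 0.06 lay below that of the shortest class, and their siERRG2 median of -0.03 below its 0.03. The part of length in the subunit values was not tested.

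**Figure D4:**
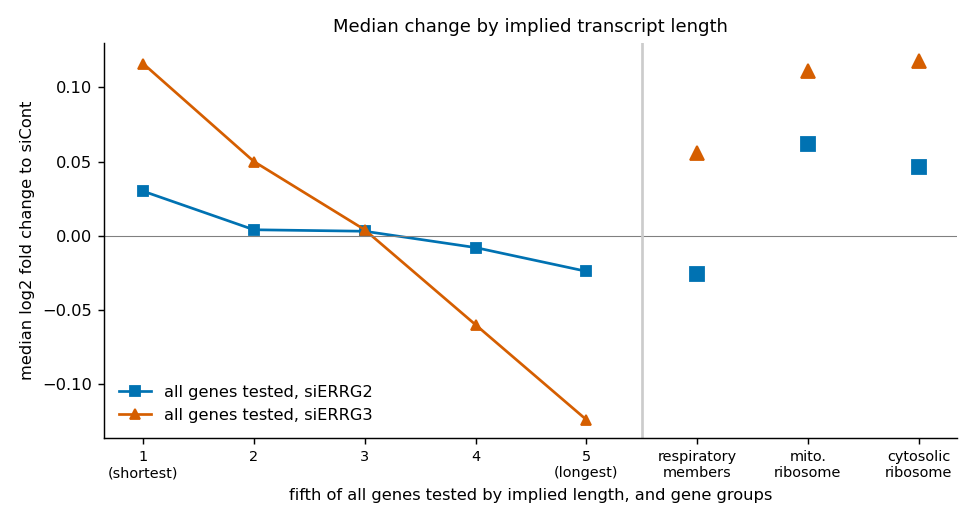
Median log2 fold change to siCont in siERRG2 (squares) and siERRG3 (triangles) of all genes tested, in 5 classes of implied transcript length from shortest to longest, and to the right of the grey line of the subunit genes and the mitochondrial and cytosolic ribosomal protein genes. The siERRG3 line falls from 0.12 to -0.12, and the subunit genes lie below both ribosomal lists in both libraries.

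Other gene lists, mitochondrial and cytosolic, gave a frame for these values. Of all genes tested, 19.2% were lower and 16.3% higher in siERRG2, and 25.1% and 23.2% in siERRG3. The 78 mitochondrial ribosomal protein genes had 5 lower (6.41%) and 7 higher (8.97%) in siERRG2. In siERRG3 they had 5 lower (6.41%) and 20 higher (25.6%), and the medians were 0.06 and 0.11. The 83 cytosolic ribosomal protein genes tested had 1 lower (1.21%) and 1 higher (1.21%) in siERRG2. In siERRG3 they had 3 lower (3.61%) and 12 higher (14.5%), and the medians were 0.05 and 0.12. The 18 genes of the TCA cycle and pyruvate dehydrogenase had 4 lower (22.2%) and 0 higher in siERRG2, with a median of -0.10. In siERRG3 they had 2 lower (11.1%) and 1 higher (5.56%), with a median of -0.05. Among them IDH2, the NADP-linked isocitrate dehydrogenase, had 4069, 3730 and 2554 and fell by 0.70 in siERRG3, while its siERRG2 value was -0.14.

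The 48 assembly factors, which build the complexes without being part of them, had 3 lower and 6 higher genes in siERRG2 and 7 lower and 18 higher in siERRG3, with medians of 0.05 and 0.15. The shares called, 18.75% and 52.08%, stand beside 35.5% and 48.3% of all genes. LYRM7, which handles the Rieske protein of complex III before its insertion, was the 1 factor lower in both, with 1280, 920 and 729 counts and log2 fold changes of -0.49 and -0.84. The 5 factors higher in both were NDUFAF8, SDHAF2, SDHAF3, COX20 and TMEM70, while 7.27% of all genes were higher in both. TMEM70, a factor for complex V, had 870, 1312 and 1262 counts and rose by 0.57 and 0.51.

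Of 15 regulators of these genes, 13 passed the filter, and 2 were lower and 1 higher in siERRG2. The lower ones were ESRRG itself and PPARGC1B, the coactivator PGC-1β, at 687, 536 and 719 counts, and the higher one was PPARGC1A, the coactivator PGC-1α, at 149, 192 and 133. In siERRG3 only ESRRG was lower and only YY1, at 1789, 2037 and 2417 counts, was higher. NRF1 had 571, 506 and 491 counts, GABPA, an ETS factor, had 1400, 1411 and 1396, and TFAM, which packages mitochondrial DNA, had 1788, 1680 and 1589, none of them called.

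The promoter letters were then set beside the changes. Of the 11 subunit genes with AAGGTCA, 2 were lower in siERRG2 (SDHD and NDUFA5), and in siERRG3 3 were lower (SDHD, ATP5F1A and COX8A) and 2 higher (NDUFA5 and ATP5MPL). Of all tested genes with AAGGTCA in a window, 24.8% were lower and 15.9% higher in siERRG2, and 24.5% and 25.2% in siERRG3. With or without the letters, 19.2% of all genes were lower and 16.3% higher in siERRG2, and 25.1% and 23.2% in siERRG3. The median log2 fold change of the 11 was -0.18 in siERRG2 against -0.02 for the 56 with windows but without the letters. In siERRG3 it was 0.11 against 0.05. Over all tested genes with AAGGTCA in a window, the median came to -0.02 in siERRG2 and to 0.03 in siERRG3. The 16 genes with the NRF1 letters had medians of -0.02 in both libraries, against -0.02 and 0.10 for the 51 without. The 21 genes with the ETS letters had medians of -0.06 and 0.08, against 0.01 and 0.05 for the 46 without.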

How the data were processed

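RNA was extracted with TRIzol and sequenced from a directional kit, as paired ends per the labels while the methods name a single-end run, in 1 library each of H128 cells with siCont, siERRG2 and siERRG3. The authors deposited 1 table of 17448 mRNA genes with an estimated count (expected count) of reads per gene and library, which is not normalized and was whole in 54.0% to 54.9% of genes. A deposited expression value with no named unit was taken as FPKM, since its ratio to the count followed the library total (1.0022 and 1.0086 of siCont, against totals of 1.0019 and 1.0078). The submitters' processing notes name TopHat2, HTSeq, DESeq2 and the builds hg19, hg38 and GRCh38, while the methods name BWA and Bowtie 2 with hg19. Coordinates in the table are GRCh38 ones, and the program that made these counts, and its use of strand, are not given in the sources used here. The 6 columns of the authors' own comparisons (log2 ratios, Poisson p-values and adjusted values) were not used.

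Counts were rounded, and a gene was kept if any library had 10 or more. Library sizes were scaled with TMM in edgeR 4.0.16 (R 4.3.3; factors 0.994, 1.003 and 1.003), and log2 CPM had a prior count of 2, which draws low genes towards 0. No model was fitted, since there was 1 library per group. Intervals at 95% are Clopper-Pearson (SciPy 1.17.1), and reads without molecular identifiers are not independent molecules, so they cover counting error only. The floor was 3 counts. Implied length is the count divided by the FPKM and the library total. The computations were tested on simulated data with counting noise only and known changes well past 1.2-fold. The detection of changes near 1.2-fold was not tested.

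The members and the other lists were chosen with earlier results of these data known. The genes named were ESRRG, members called the same way in both ESRRG libraries, in each complex the 2 lowest and 2 highest by mean change, the 2 highest and the lowest by level, isoform pairs, members that failed the filter, and called genes of the other lists. Other genes were named after their values were seen, among them the remaining called members. Alternatives were scaling by totals, DESeq2 1.42.0 size factors, FPKM with a pseudocount of 0.1, no filter on counts, a filter at a mean of 50 counts, a prior count of 0.5, a 1.5-fold threshold, lists without nonstructural members or with other subunit symbols, and members with whole counts only. A call that also needs an interval clear of 1 was added after seeing the data. Some items are not reported here by name and are left out of the plot of levels.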

Additional observations from a re-analysis of the deposited data

How the results depend on the processing

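Under the alternatives, 0 called members turned from lower to higher or from higher to lower. At 1.5-fold the calls were fewer. In siERRG2 2 were lower and 0 higher, in siERRG3 2 were lower and 0 higher, between the ESRRG libraries 0 were lower and 3 higher, and 0 were lower in both. With whole counts only, 56 members were tested in place of 81. Of these, 5 were lower in siERRG2, 3 in siERRG3, 2 between the ESRRG libraries and 1 in both. The medians were -0.13 for complex III (5 genes) in siERRG2 and 0.29 for complex II (3 genes) between the ESRRG libraries. Members higher in siERRG2 numbered 3 with total counts, 2 with DESeq2 size factors, 4 with FPKM and 3 with no filter, against 1. Members higher in siERRG3 numbered 9 with total counts and 9 with a mean of at least 50 counts, against 5. Members higher in both numbered 1 with total counts, DESeq2 size factors, FPKM or no filter, against 0. Members lower in both numbered 1 without nonstructural members, and 1 with an interval clear of 1 added to the rule after seeing the data. ATP5IF1 in FPKM had log2 fold changes of 0.34 in siERRG2, 0.12 in siERRG3 and -0.22 between them. Of 165 medians by complex, comparison and setting (for cytochrome c, of 1 gene), 163 moved by less than the median width on either side of the counting intervals of the complex's genes.

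No paired analysis was possible because each condition has 1 library, and leaving out a library was not possible for the same reason. At this depth a member of 15 counts had an interval that held 1 at a ratio of 0.461, while one of 2416 counts was bounded to within 0.358 to 0.417. Differences between cultures given the same siRNA were not measured here, so small shifts beyond counting error may lie within them.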
